A study of Homo sapiens with 6 samples.

Results

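The genes described here encode 10 nuclear factors that transcribe the mitochondrial genome or modify and assemble the 12S ribosomal RNA (rRNA). They were taken by their exact symbols, and all 10 were found among the 43424 gene symbols of the count tables. All 10 also passed the filter on low counts that left 13198 genes for testing. RNA was counted in cultures of HepG2, a human liver cancer line described in the labels as wild type. Of the 6 libraries, 3 were of untreated control cells and 3 of cells kept for 24 h with tamarixetin, a methylated relative of the plant flavonol quercetin, at 10 µM. The labels name no vehicle, and they describe the low-serum medium (1% serum, against 10% for growth) for the treated cells only, so compound and serum cannot be told apart.

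Mitochondria keep a small circular genome that is read into long precursor RNAs by a dedicated polymerase, POLRMT. TFAM bends and packages this DNA and brings POLRMT to the promoters, TFB2M opens the promoter, and TEFM keeps the polymerase moving. The precursor of the heavy strand begins with the ribosomal RNAs, 12S (RNR1) for the small and 16S (RNR2) for the large subunit of the mitochondrial ribosome. Methyltransferases (TFB1M, METTL15 and NSUN4) mark the 3′ part of the 12S rRNA, and the GTPase ERAL1 and the ribosome-binding factor RBFA act in small subunit assembly. LRPPRC, with its partner SLIRP, stabilises mitochondrial messenger RNAs. All of these factors are encoded in the nucleus and imported.

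The bases that the methyltransferases act on lie in the last 123 bases of the 12S rRNA, positions 832 to 954 of the RNA. The stretch is printed to show how close together these targets lie in the RNA that the other values are set against. The stretch is chrM:1479-1601 on the plus strand (GRCh38, GENCODE 29), written with T for U. Capitals mark, in order, the cytosines at positions 839 (known target of METTL15) and 841 (NSUN4) and the adjacent adenines at 936 and 937 (TFB1M).
RNR1: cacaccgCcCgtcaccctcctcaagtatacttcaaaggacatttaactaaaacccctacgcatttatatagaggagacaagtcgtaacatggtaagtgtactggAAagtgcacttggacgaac
The longest run of A in the whole 12S sequence of 954 bases was 6, with 1 run of at least 5. In the 1559 bases of the 16S rRNA it was 7, with 7 such runs. The QuantSeq 3′ kit named in the labels primes on poly(A), and rRNA carries no long tail, so a count of RNR1 or RNR2 is a read-out of priming as well as of amount. Counts of these genes, and their ratios to other genes, were therefore compared between libraries and are not read as relative amounts of the RNAs within one.

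RNR1 had the lowest log2 fold change of tamarixetin over control among the rRNAs and coding genes of the mitochondrial genome, -1.57. It had 16993, 16493 and 16823 CPM (counts scaled by the TMM-adjusted library size) in the control libraries and 5803, 5569 and 5611 CPM in the tamarixetin libraries. The 3 treated libraries lay far below the 3 controls, with a fold of 0.338 (95% interval 0.326 to 0.349). Only 103 of the 13198 genes tested had a lower log2 fold change. RNR2 stood at 35434, 33244 and 33053 CPM in control and 27386, 27101 and 28742 CPM with tamarixetin, a fold of 0.818 (0.793 to 0.845). Both fell in edgeR's quasi-likelihood test, with an adjusted p of at most 2.05e-20. The tRNA gene ahead of the 12S rRNA, TRNF, rose from 427 ± 12.7 to 616 ± 26.9 CPM (SD, n = 3 per group). TRNL1, the tRNA gene directly after RNR2, rose too, from 678 ± 40.4 to 942 ± 23.5 CPM (adjusted p = 4.09e-23, edgeR). The rise in counts was therefore seen on both sides of the rRNAs. The limit of poly(A) priming given for the rRNAs holds for these short genes too, so their counts are not read as amounts of tRNA. TRNV, between the rRNAs, had only 14 to 38 counts per library and did not pass (adjusted p = 0.149, edgeR).

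Of the 10 factors 6 were higher with tamarixetin at an adjusted p under 0.05 and none was lower, while 22.4% of all genes tested were called higher and 21.3% lower. The median log2 fold change of the 10 was 0.20, against 0.00038 for all genes tested, and single values ran from -0.07 to 0.42. The 6 called genes included all 4 of the transcription machinery, 1 of the 3 methyltransferases, neither assembly factor, and LRPPRC. In 7 of the 10 every tamarixetin library was above every control library, where 26.0% of all genes tested had that arrangement and 50.5% did not overlap in either direction. The count of 6 came to 3 without control replicate 2 or without tamarixetin replicate 2. It was also 3 at an adjusted p of 0.01, and it was 0 with a minimum fold of 1.2 in the test (edgeR's glmTreat), where 1 gene had an unadjusted p under 0.05. No difference between 2 of these factors was tested.

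**Figure D1:**
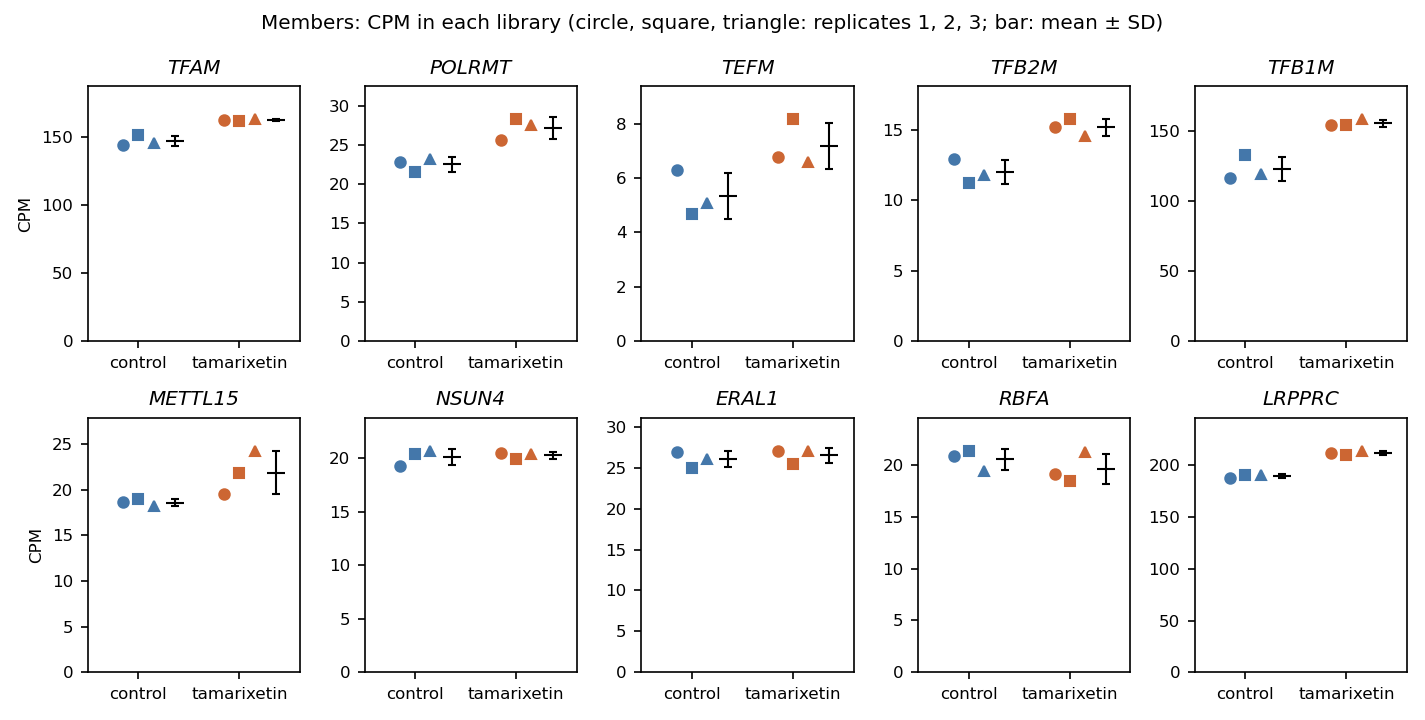
CPM of the 10 factors in each library, 1 panel per gene, with the replicates as circles, squares and triangles and the group mean ± SD as a bar; the vertical axes start at 0. TFAM, POLRMT, TEFM, TFB2M, TFB1M, METTL15 and LRPPRC have all 3 tamarixetin libraries above the controls, and NSUN4, ERAL1 and RBFA overlap.

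The upstream sequences of 3 of the factors are printed because they carry words known from genes of mitochondrial biogenesis. The words were chosen with these promoters in view, so the matches are shown as sequence features only and nothing is read from how often they occur. Exact matches to 2 words were searched on both strands. GCATGCGC is 1 form of the site for the transcription factor NRF1, and CCGGAAG 1 form of ETS sites such as those of GABP. The words do not overlap each other. Windows were the 250 bases before each RefSeq transcript start (GRCh38.p14), and all 10 factors had an entry, NSUN4 with 2. Among 35116 such windows of all genes, 2.63% held the NRF1 word, 8.52% the ETS word and 0.439% both. TFB1M and POLRMT held both words, TFB2M held the NRF1 word, and the other 7 held neither in this window. Those 7 include TFAM, TEFM and LRPPRC, which were also called higher. Variants of the words were not searched, so a window without a word may still hold such a site. Capitals mark the words; where they read GCGCATGCGC, the word occurs on both strands in overlap. The windows are chr6:155314485-155314734, chr19:633538-633787 and chr1:246566262-246566511, each on the minus strand.
TFB1M: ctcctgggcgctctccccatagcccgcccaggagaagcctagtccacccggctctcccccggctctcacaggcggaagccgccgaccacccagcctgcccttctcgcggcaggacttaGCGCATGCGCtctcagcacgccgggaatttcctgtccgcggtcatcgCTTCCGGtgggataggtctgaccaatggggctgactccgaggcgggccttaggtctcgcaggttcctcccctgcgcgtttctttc
POLRMT: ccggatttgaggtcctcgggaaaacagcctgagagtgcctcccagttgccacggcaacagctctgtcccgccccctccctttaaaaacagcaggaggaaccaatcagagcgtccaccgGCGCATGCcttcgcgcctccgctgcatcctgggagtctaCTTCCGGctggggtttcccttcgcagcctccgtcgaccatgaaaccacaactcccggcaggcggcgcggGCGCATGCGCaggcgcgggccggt
TFB2M: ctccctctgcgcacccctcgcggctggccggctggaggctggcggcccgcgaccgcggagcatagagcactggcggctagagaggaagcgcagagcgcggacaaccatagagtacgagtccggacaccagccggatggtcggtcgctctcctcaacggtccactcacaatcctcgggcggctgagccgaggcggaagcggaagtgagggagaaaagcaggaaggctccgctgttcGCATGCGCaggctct
The word lies 132 and 130 bases before the start in TFB1M and 15 bases before it in TFB2M. A match is a description of the letters and no evidence of binding in these cells.

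Among the factors that start and carry on transcription, TFAM rose slightly and evenly. The gene lies on chromosome 10 (58385410 to 58399220). It had 144, 151 and 146 CPM in control and 162, 162 and 163 CPM with tamarixetin, a fold of 1.10 (95% interval 1.04 to 1.17; adjusted p = 0.00610, edgeR's quasi-likelihood test). The treated libraries were close together, with a coefficient of variation of 0.433% where counting alone, at a mean of 2162 counts, gives 2.15%. With 3 libraries, a spread under that of counting is not read as a trait of the gene. The amount of mitochondrial DNA that TFAM coats was not measured here.

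POLRMT, the single-subunit RNA polymerase (chromosome 19), rose from 22.9, 21.5 and 23.3 CPM to 25.7, 28.3 and 27.5 CPM. Its mean was 20.1% higher by the fitted log2 fold change of 0.26 (95% interval 0.08 to 0.45; adjusted p = 0.0161, edgeR). TFB2M, the promoter-melting partner (chromosome 1, 246540561 to 246566261), went from 12.9, 11.3 and 11.8 CPM to 15.2, 15.8 and 14.6 CPM, which was 26.6% higher by the fitted log2 fold change of 0.34 (95% interval 0.09 to 0.59; adjusted p = 0.0192, edgeR). Neither gene's groups overlapped, but the gaps were small. Without control replicate 2 or tamarixetin replicate 2, POLRMT did not pass (adjusted p = 0.0714 and 0.0715). TFB2M did not pass without control replicate 2 (0.0796), control replicate 3 (0.0589) or tamarixetin replicate 2 (0.0657).

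TEFM, the elongation factor that lets POLRMT read on into the long precursor (chromosome 17, 30898986 to 30906238), had the fewest counts of the 10, from 56 to 113 per library. Its values were 6.29, 4.67 and 5.08 CPM in control and 6.80, 8.18 and 6.60 CPM with tamarixetin. The groups were separated by 1 narrow gap, between control replicate 1 and tamarixetin replicate 3. The fold of 1.34 (1.04 to 1.72) was the largest point estimate of the set and the least certain, with an adjusted p of 0.0499 in edgeR. The call was lost in 13 of 17 alternatives, among them DESeq2 (adjusted p = 0.105), limma-voom (0.0593) and the fits without control replicate 2 (0.175), control replicate 3 (0.137), tamarixetin replicate 1 (0.0572) or tamarixetin replicate 2 (0.220). Exons of TEFM other than its last overlap ADAP2 in GENCODE 29, and ADAP2 itself rose, from 4.42 to 6.88 CPM (adjusted p = 0.00692, edgeR); how reads of the pair were assigned was not tested.

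The 12S methyltransferases differed in their values. TFB1M, which dimethylates the adjacent adenines of the 3′ hairpin loop, rose most clearly of the 10 factors. The gene, on chromosome 6, is a paralogue of TFB2M. The control libraries held 116, 132 and 119 CPM and the tamarixetin libraries 154, 154 and 158 CPM. Control replicate 2 was the highest control and still lay under all treated libraries. The fold was 1.27 (1.19 to 1.36), with an adjusted p of 1.32e-09 in edgeR's quasi-likelihood test, rank 1302 of 13198 genes by p. A total of 17.3% of all genes tested had a higher log2 fold change. The spread of the controls, a coefficient of variation of 7.02%, was above the 2.27% that counting alone gives at this depth. Leaving out single libraries gave log2 fold changes of 0.31 to 0.40, and among the 17 alternatives run the call was lost only with a minimum fold of 1.2 (adjusted p = 0.0614). The last exon of TFB1M overlaps an exon of TIAM2 on the opposite strand, and with no strand setting given their reads cannot be told apart. TIAM2 had 9.77 CPM in control and 7.67 CPM with tamarixetin (adjusted p = 0.0529, edgeR), far below TFB1M.

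Neither of the other methyltransferases passed. METTL15, which places a methyl group on the base nitrogen of a 12S cytosine (chromosome 11), had 18.6, 18.9 and 18.2 CPM in control and 19.5, 21.8 and 24.2 CPM with tamarixetin. All treated libraries were above the controls, but they were spread (coefficient of variation 10.9%, against 2.00% in control). The fold was 1.17 (1.02 to 1.35; adjusted p = 0.0658, edgeR). The gene passed when tamarixetin replicate 1 was left out (adjusted p = 0.0263) or when only library totals were used for scaling (0.0314). NSUN4, which methylates a ring carbon of the nearby cytosine and also acts in ribosome assembly (chromosome 1), had 19.3, 20.4 and 20.7 CPM in control and 20.5, 19.9 and 20.4 CPM with tamarixetin. Its groups lay within each other, with a fold of 1.01 and an interval of 0.874 to 1.16 that spans both directions (adjusted p = 0.950, edgeR).

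The assembly factors gave no call. ERAL1, a GTPase that binds the 3′ end of 12S rRNA as a chaperone (chromosome 17, 28855016 to 28861061), had 27.0, 25.0 and 26.1 CPM in control and 27.0, 25.4 and 27.1 CPM with tamarixetin. The log2 fold change was 0.02 with an interval of -0.16 to 0.21 (adjusted p = 0.858, edgeR). RBFA, which binds the small subunit while the 12S rRNA is being methylated (chromosome 18, 80034434 to 80050651), had 20.8, 21.3 and 19.4 CPM in control and 19.1, 18.5 and 21.2 CPM with tamarixetin. It was the single factor of the 10 with a log2 fold change under 0, at -0.07, and its interval as a fold ran from 0.828 to 1.10 (adjusted p = 0.645, edgeR). In both genes the groups overlapped. The last exon of RBFA overlaps AC090360.1 on the same strand, so its reads may be shared with that gene. The signs of NSUN4 and ERAL1 turned with upper quartile scaling, so their values carry no direction.

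LRPPRC, the most deeply counted of the factors with a mean of 2800 counts per library (chromosome 2), rose evenly. It had 187, 190 and 190 CPM in control and 211, 209 and 214 CPM with tamarixetin, a fold of 1.12 (1.06 to 1.18; adjusted p = 7.97e-04, edgeR). The groups were narrow and did not overlap. Their coefficients of variation were 1.02% and 0.985%, under the 1.89% that counting alone gives. SLIRP, its partner, stood at 340 ± 6.08 CPM in control and rose to 366 ± 9.45 CPM (SD, n = 3 per group), by 0.11 on the log2 scale (adjusted p = 0.0128, edgeR; SE 0.037). Most of the messenger RNAs that the pair stabilises were lower in the same libraries. Of the 12 coding genes of the heavy strand 8 fell and none rose, where 21.3% of all genes tested fell and 22.4% rose. The median log2 fold change of the 12 was -0.27. ND6, the coding gene of the light strand, fell by 0.66 on the log2 scale. Counts of all these genes also depend on priming at poly(A).

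**Figure D2:**
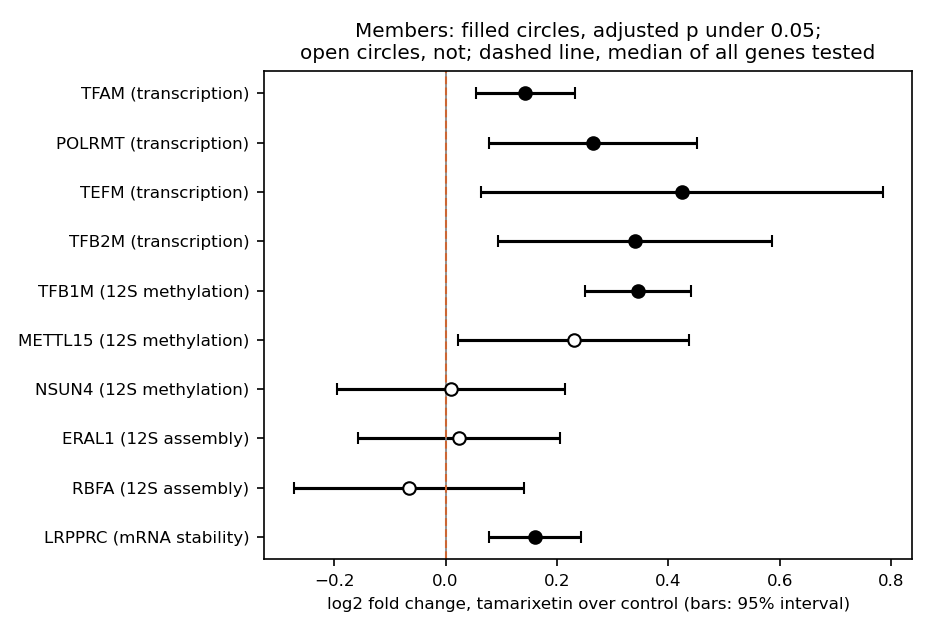
Log2 fold change of tamarixetin over control for each of the 10 factors, by role, with 95% intervals; filled circles passed the test and open circles did not. The intervals of the 6 called genes and of METTL15 lie above 0, those of NSUN4, ERAL1 and RBFA span it, and TEFM has the widest.

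Ratios of counts within a library need no scaling, and they set the 12S rRNA beside its neighbours and its factors. For each RNR2 count there were 0.480, 0.496 and 0.509 RNR1 counts in control and 0.212, 0.205 and 0.195 with tamarixetin. The log2 ratio differed by -1.28, a fold of 0.412 (p = 0.1 by a two-sided exact permutation test over the libraries, which with 3 in each group can go no lower). RNR1 over the summed heavy-strand coding genes gave nearly the same fold, 0.408. RNR2 over those coding genes was 0.607, 0.630 and 0.584 in control and 0.619, 0.584 and 0.596 with tamarixetin, so the groups overlapped (fold 0.988, p = 0.8 by the same exact test). Relative to the summed coding genes, then, the ratio for 12S rRNA was far from its control values. The ratio for 16S rRNA, from the same precursor, lay among its control values. Taken singly, the coding genes ran from -0.53 (ATP8) to -0.02 (ND4L) on the log2 scale, with RNR2 at -0.29. A ratio of RNR2 to a single coding gene therefore depends on the gene.

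Set against its factors, RNR1 was also lower in tamarixetin libraries. RNR1 itself had a fold of 0.338, so a gene that did not change gives a ratio near that value. These ratios therefore mostly restate the fall of RNR1. For each TFB1M count there were 146, 125 and 141 RNR1 counts in control and 37.7, 36.2 and 35.5 with tamarixetin, a mean of 0.265 of control. Per ERAL1 count, a factor that gave no call, there were 630, 660 and 645 in control and 215, 219 and 207 with tamarixetin, a mean of 0.332 of control. Over all 10 factors the mean ratio was between 0.250 (TEFM) and 0.354 (RBFA) of control. These are ratios of sequenced fragments and not of molecules. The 6 libraries form 2 separate groups in RNR1, and 3 libraries per group are too few for a correlation, so no correlation between a factor and RNR1 is given.

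**Figure D3:**
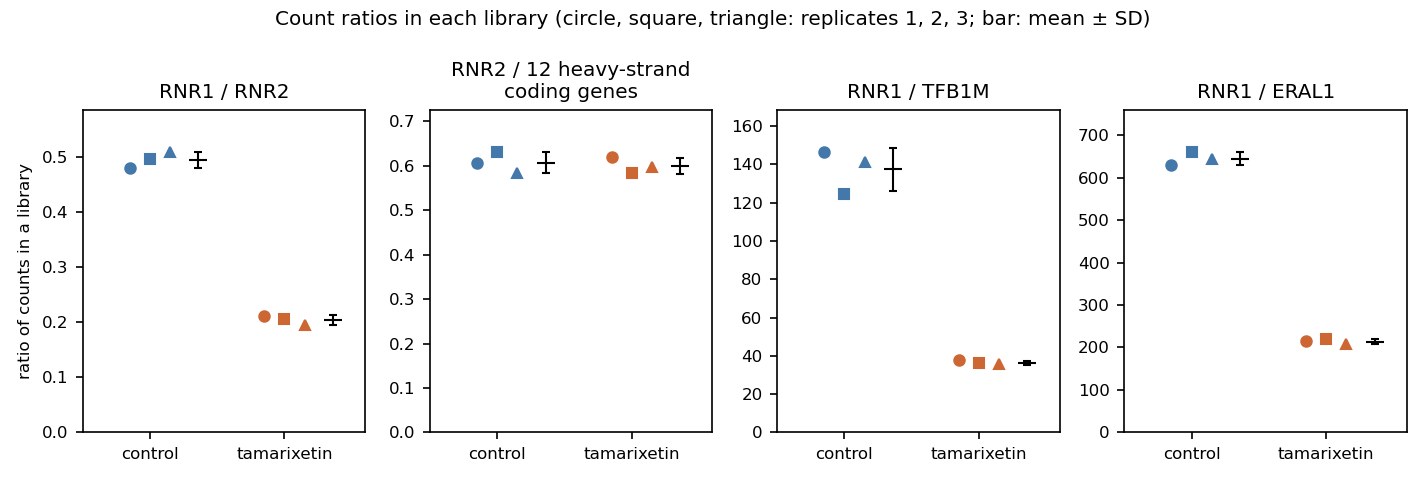
Ratios of counts in each library for RNR1 over RNR2, RNR2 over the 12 heavy-strand coding genes, RNR1 over TFB1M and RNR1 over ERAL1; symbols are replicates and bars the mean ± SD, with axes from 0. The tamarixetin libraries lie far below the controls wherever RNR1 is on top (0.195 to 0.212 against 0.480 to 0.509 per RNR2 count). They overlap the controls for RNR2 over the summed coding genes.

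Transcripts of the factors named for the promoter words did not pass the test: NRF1 went from 8.53 to 9.78 CPM (adjusted p = 0.345, edgeR) and GABPA from 6.71 to 6.88 CPM (adjusted p = 0.858, edgeR). Of the 10 nuclear regulators tested, with NRF1 and GABPA among them, 5 rose and 1 fell, CREB1 (-0.27), where 22.4% of all genes tested rose and 21.3% fell. The median log2 fold change of the 10 was 0.33. The coactivator PPARGC1B rose from 12, 18 and 18 counts to 50, 56 and 47 counts, by 1.69 on the log2 scale (SE 0.32) at a low level. The receptor ESRRA rose by 0.54, from 33.5 ± 1.22 to 48.7 ± 1.66 CPM (SD, n = 3 per group). MYC rose by 0.48, PPRC1 by 0.47 and PPARGC1A by 0.49. The adjusted p of these 5 was at most 2.08e-04 in edgeR's quasi-likelihood test.

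The wider RNA machinery of mitochondria was described with lists of genes that act beside the 10 factors. Over 7 lists, 59 of 101 genes tested were called, 48 higher and 11 lower, a share of 58.4% where 43.7% of all genes tested were called. That order turned with a minimum fold of 1.2 in the test, which called 15 of the 101 genes and 2560 of the 13198 genes tested. The share of all genes also depends on the filter. With at least 5 CPM in 3 libraries, 5235 of 10216 genes tested were called, and again 59 of the related genes. Factors of RNA decay, polyadenylation and RNA granules rose in 7 of 9 and fell in none, with a median of 0.33, beside 22.4% higher and 21.3% lower over all genes tested. PNPT1, the exoribonuclease that degrades mitochondrial RNA, rose by 0.49 (SE 0.075), from 35.5 ± 2.49 to 49.6 ± 0.939 CPM (SD, n = 3 per group). REXO2, which clears short RNA fragments, rose by 0.36, and the granule protein GRSF1 by 0.34. LACTB2, a mitochondrial endoribonuclease, rose by 0.33.

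Factors that cut the precursor or belong to the FASTK family rose in 6 of 10 tested and fell in 1, FASTK itself (-0.17), with a median of 0.20, where 22.4% of all genes tested rose and 21.3% fell. FASTKD5 rose by 0.49, FASTKD1 by 0.55 and TBRG4 by 0.42. TRMT10C, a subunit of the ribonuclease that frees the tRNAs at their 5′ ends, rose by 0.27. ELAC2, which cuts their 3′ ends, rose by 0.16, and the catalytic subunit PRORP had 11.8, 12.8 and 9.78 CPM in control and 10.3, 8.83 and 9.40 CPM with tamarixetin (adjusted p = 0.130, edgeR).

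Proteins numbered in the small subunit series, most of which assemble on the 12S rRNA, rose in 18 of 31 tested and fell in 2, MRPS14 (-0.19) and MRPS9 (-0.15), against 22.4% and 21.3% of all genes tested; their median was 0.15. MRPS25 rose by 0.42, MRPS5 by 0.30 and MRPS23 by 0.36. MRPS30 rose by 0.62, and this protein, despite its number, sits in the large subunit. Of 8 other factors of the small subunit 1 rose, C1QBP (0.21), and 1 fell, TRMT2B (-0.43), a methyltransferase that modifies a uridine of the 12S rRNA. The share called of those 8 was 25%, against 43.7% of all genes tested, and their median was 0.07.

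Factors of 16S rRNA modification and large subunit assembly were mixed, with 5 of 19 higher and 4 lower and a median of 0.05. The share called, 47.4%, was near the 43.7% of all genes tested. MTERF4, the partner protein of NSUN4, fell from 31.0 to 22.9 CPM (log2 fold change -0.43, SE 0.091; adjusted p = 3.49e-05, edgeR). RCC1L fell by 0.45 and MALSU1 by 0.25, while the pseudouridine synthase RPUSD4 rose by 0.18. Factors that copy and maintain mitochondrial DNA rose in 6 of 14 tested and fell in 2, a share called of 57.1% against the same 43.7%, although their median was -0.04. RNASEH1, which removes RNA from hybrids, rose by 0.42, the helicase TWNK by 0.31 and the nucleotide carrier SLC25A36 by 0.27. The carrier SLC25A33 fell by 0.56 and the nuclease DNA2 by 0.50.

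**Figure D4:**
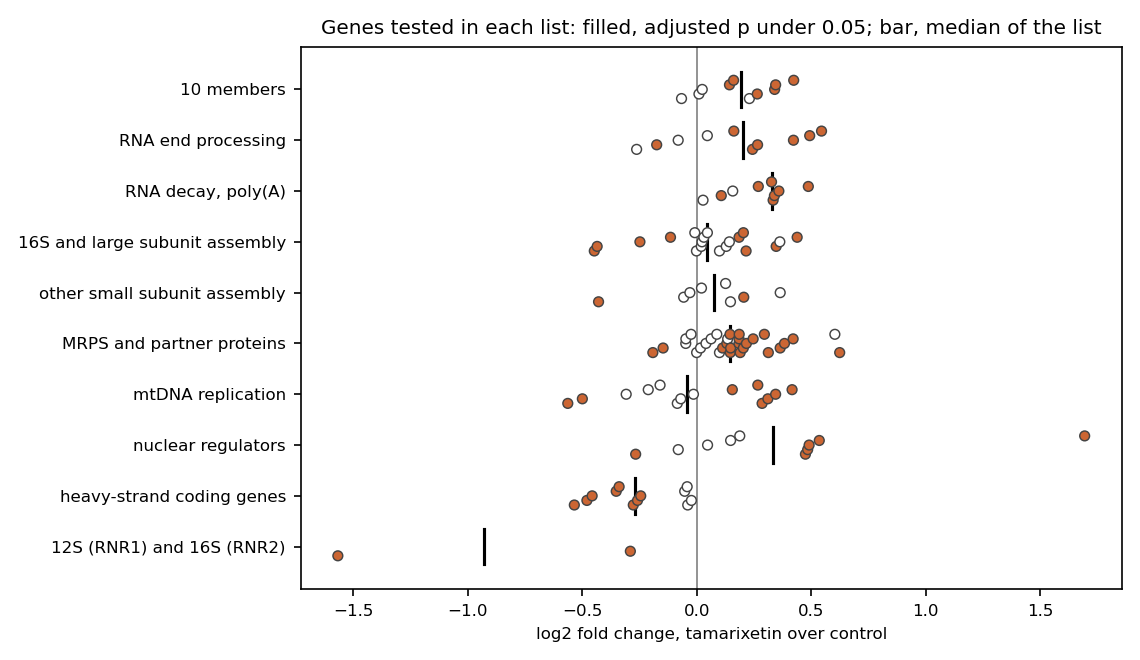
Log2 fold change of tamarixetin over control for each gene tested in the 10 factors, in 7 related lists and in transcripts of the mitochondrial genome; filled points passed the test, bars are list medians and vertical offsets are for display. The decay list lies wholly above 0, the heavy-strand coding genes lie below 0, and RNR1 at -1.57 is the lowest point.

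Library totals ran from 11980585 to 16168855 counts, and the groups' ranges overlapped. The mitochondrial share of all counts was 10.3% to 11.0% in control and 7.98% to 8.53% in tamarixetin libraries, and without RNR1 8.63% to 9.37% and 7.39% to 7.96%. With the mitochondrial genes left out of the totals, the log2 fold changes were 0.14 for TFAM, 0.34 for TFB1M and 0.16 for LRPPRC, as with them. All 9 hepatocyte markers were present in every library, and all 9 fell, where 21.3% of all genes tested fell. Their summed level was 16010 to 16619 CPM in control and 9220 to 9480 CPM with tamarixetin. Of 11 markers of blood, stroma, endothelium and bile duct none was at 0 in all libraries, and 4 (PTPRC, VWF, CDH5 and KRT7) were under 1 CPM in each. The sum of the 11, mostly LYZ, was 1131 to 1227 CPM in control and 948 to 1013 CPM with tamarixetin. Of the 7 of them that were tested, 4 also fell and none was called higher. The labels name only HepG2, so the 11 markers are not read as cells of other kinds. The part of these shifts in the results was not tested. In bulk RNA, fewer HepG2 cells with a high level and less RNA per cell cannot be told apart.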

How the data were processed

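RNA of 3 control and 3 tamarixetin HepG2 cultures was read with the QuantSeq 3′ forward kit, per the labels' protocols. Tools named in the submitters' processing notes are STAR 2.7.10b, fastp 0.23.1 and featureCounts 2.0.6, with GRCh38; of the annotation, strand setting and molecular identifiers nothing is given. The authors deposited unnormalised whole-number counts for each gene symbol. The labels call the samples biological replicates without naming separate passages. The p-values therefore set the group difference against the spread between these cultures only.

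Counts were filtered with filterByExpr, scaled with TMM and tested with edgeR 4.0.16 (R 4.3.3), quasi-likelihood F test, group as the only term, Benjamini-Hochberg adjustment over 13198 genes at 0.05. The procedure was tested on simulated data. SE is the log2 fold change over the square root of F, and intervals are at 95%. The common biological coefficient of variation was 4.70%. Alternatives were other scalings and filters, DESeq2 1.42.0, limma-voom (limma 3.58.1), a replicate block, each library left out, a stricter p and a minimum fold.

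The 10 factors and all lists were chosen with earlier results of these data known, and the 2 promoter words with the members' promoters in view. All 10 factors were named whatever their values, and of each related list at most the 4 genes with the smallest p, besides the few that moved against their list and partners or regulators of the factors (SLIRP, ELAC2, PRORP, NRF1, GABPA, PPARGC1A, and ADAP2 and TIAM2 as overlapping genes), which were named after their values were seen. Sequences are from RefSeq (GRCh38.p14) and GENCODE 29.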

Additional observations from a re-analysis of the deposited data

How the results depend on the processing

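RNR1 kept its fall in all 16 alternatives that could test it, with log2 fold changes of -1.60 to -1.53. The 6 called factors kept a log2 fold change above 0 in all 17 alternatives run. With a minimum fold of 1.2 in edgeR's test, 2560 genes, 0 of the 10 factors (1 at an unadjusted p under 0.05; 6 to 7 at an unadjusted p under 0.05 in DESeq2 and limma-voom without the fold minimum) and 15 genes of the related lists were called. At an adjusted p of 0.01, 3 factors were called: TFAM, TFB1M and LRPPRC. Leaving out 1 library gave 3 to 6 called factors, 5155 to 5367 called genes and 51 to 55 called genes of the related lists. NSUN4 turned to -0.026 with upper quartile factors and to -0.025 without control replicate 1, and ERAL1 to -0.011 with upper quartile factors and to -0.0066 without control replicate 2; neither passed a test there, and leaving out 1 library gave -0.025 to 0.027 for NSUN4 and -0.0066 to 0.056 for ERAL1. RNR2 kept its sign but did not pass with the minimum fold (adjusted p = 0.165). Scaling moved the median of all genes by at most 0.035 on the log2 scale.

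The labels number the replicates 1 to 3 in each group, but same-numbered libraries did not deviate together (correlations of -0.041 to -0.0089 over genes). No pairing was seen in these values, and whether same-numbered cultures shared a passage or day is not known. With the replicate block 5735 genes and 5 of the 10 factors were called; TEFM did not pass (adjusted p = 0.0603). Depth limits TEFM most, where counting alone gives a coefficient of variation of 10.7%.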

Other observations

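Some genes of the related lists are listed at 0 in all 6 libraries although cells that keep a mitochondrial genome and ribosome use them: POLG, the catalytic subunit of the mitochondrial DNA polymerase, PTCD1 and MRPS24. In each case the files also list at 0 a gene that overlaps it, POLGARF, ATP5MF-PTCD1 and URGCP-MRPS24. The zeros were left out of every count of genes tested.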
